A study of Homo sapiens with 6 samples.

Results

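The effect of a low dose of GenX on RNA from a mitochondrial preparation was examined in 4 of the 6 libraries of the series, chosen by their sample titles: control 1, control 2, 10 µM 1 and 10 µM 2. HepG2, a line from a human hepatocellular carcinoma that keeps many functions of hepatocytes, was grown in DMEM with fetal bovine serum, and all groups were labelled wild type. Cultures received GenX at 10 µM for 48 h, or the solvent DMSO alone as control, before mitochondria were isolated with a commercial kit and RNA was extracted with TRIzol. Stranded libraries were prepared after ribosomal RNA had been removed, and all carried the same batch label. Each of the 57500 gene rows was considered in every library. The labels do not say whether the replicates of a group came from separate cultures, so p-values measure only the spread between these libraries, which may be technical.

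GenX belongs to the perfluoroalkyl ether acids, fluorinated surfactants brought in for the making of fluoropolymers in place of perfluorooctanoic acid. Human mitochondrial DNA (mtDNA) is a small circular genome that is copied into long transcripts from both strands, and these are then cut into messenger, transfer and ribosomal RNAs whose steady levels differ from gene to gene. All of its protein genes encode subunits of the respiratory chain or of ATP synthase. Every other mitochondrial protein is made from nuclear genes, whose messages are translated in the cytosol, in part at the mitochondrial surface. A crude mitochondrial preparation therefore also carries cytosolic, endoplasmic reticulum and nuclear RNA.

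The 10 µM libraries held 43556 and 29350 counts, and the controls held 240683 and 60854. Control 1 was thus 5.53 and 8.20 times as deep as the 10 µM libraries, and control 2 was 1.40 and 2.07 times as deep. Dose and depth moved together, and their parts in any difference below cannot be told apart. After mtDNA genes were set aside, the counts on nuclear genes were 230210 and 54502 in the controls, against 24505 and 11406 at 10 µM. A nuclear gene without a count may still have held the level of 3 counts, which was 0.0013% and 0.0055% of nuclear counts in control cells and 0.0122% and 0.0263% at 10 µM. These limits, and the exact (Clopper-Pearson) 95% intervals given below, cover counting error only. In bulk RNA, fewer cells or mitochondria of a kind and less RNA in each cannot be told apart.

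The shift that dominated the comparison was in counts on mtDNA genes. All 35 mtDNA genes considered, 13 for proteins and 22 for transfer RNAs, had counts in all 4 libraries, while the ribosomal RNA genes were not analysed here. Their summed counts were 10473 and 6352 in the controls, against 19051 and 17944 at 10 µM, higher in number in the shallower libraries. As a share of each library this was 4.35% (95% interval 4.27 to 4.43) and 10.4% (10.2 to 10.7) in the controls, and 43.7% (43.3 to 44.2) and 61.1% (60.6 to 61.7) at 10 µM. The groups did not overlap, and the means were 7.39% ± 4.30 (SD, n = 2) and 52.4% ± 12.3 (SD, n = 2). The difference was 45.0 percentage points (exact permutation test, two-sided, p = 0.333), and 2 against 2 libraries cannot give a smaller p. The plot of library composition shows the nuclear remainder smaller by the same amount.

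**Figure D1:**
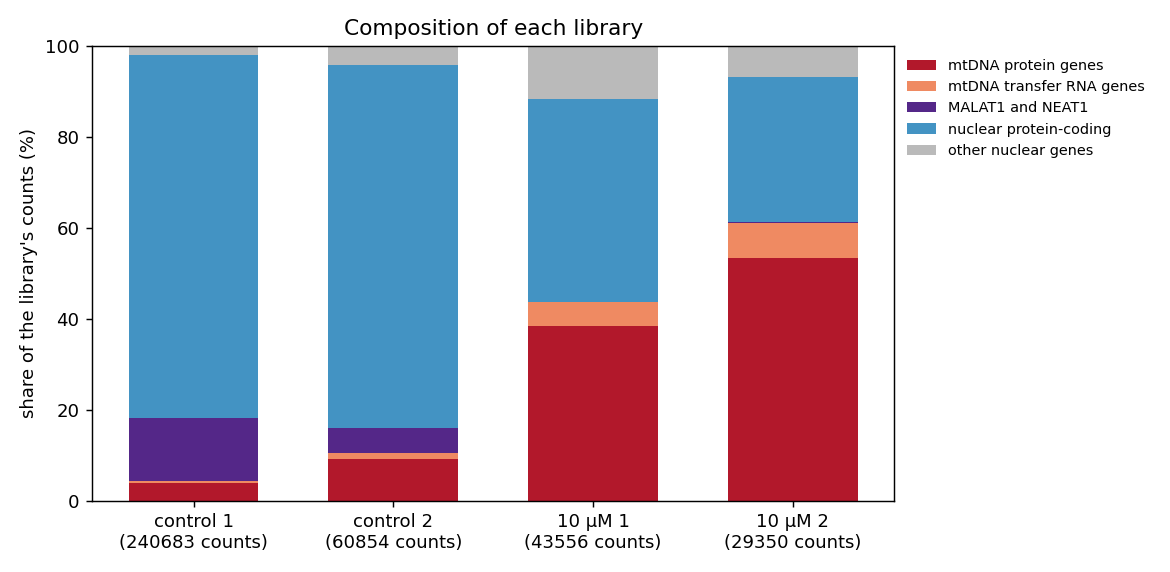
Share of each library's counts (%, vertical axis) on mtDNA protein genes, mtDNA transfer RNA genes, MALAT1 with NEAT1, nuclear protein-coding genes and other nuclear genes, 1 bar per library with its total below. mtDNA genes took 4.35% and 10.4% in control cells and 43.7% and 61.1% at 10 µM, and the band of MALAT1 with NEAT1 is visible in both controls and almost absent at 10 µM.

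Some transfer RNA genes, picked by their counts per kilobase, are printed here from GENCODE v29 transcripts on GRCh38, with the anticodon in capitals. The genes with the largest log2 fold changes are not among them. The first 3 had the most counts per kilobase of any mtDNA gene in both 10 µM libraries. The last 2 led the minus-strand genes in control 1 and share a base at their junction. Sequences are the RNA sense, 5′ to 3′, written with T, and the anticodon was located as the middle of a 7-base loop closed by a stem of 5 base pairs with at least 4 of them matched.
MT-TF, phenylalanine, chrM:577-647, plus strand: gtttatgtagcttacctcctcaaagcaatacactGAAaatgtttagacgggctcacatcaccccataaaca
MT-TV, valine, chrM:1602-1670, plus strand: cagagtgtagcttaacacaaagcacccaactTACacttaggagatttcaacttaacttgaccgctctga
MT-TP, proline, chrM:15956-16023, minus strand: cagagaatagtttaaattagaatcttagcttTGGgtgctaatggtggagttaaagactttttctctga
MT-TC, cysteine, chrM:5761-5826, minus strand: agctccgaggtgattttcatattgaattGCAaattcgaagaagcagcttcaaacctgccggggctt
MT-TY, tyrosine, chrM:5826-5891, minus strand: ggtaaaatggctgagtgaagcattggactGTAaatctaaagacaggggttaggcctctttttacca

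Among these, MT-TV, which lies between the ribosomal RNA genes, had 65 and 82 counts in the controls, against 278 and 393 at 10 µM. MT-TF, at the start of the heavy-strand transcript, had 50 and 84 in control cells and 258 and 254 at 10 µM. MT-TP, beside the control region, had 46 and 85 in the controls, against 236 and 201 at 10 µM. All 3 were higher at 10 µM in raw counts although those libraries were shallower. MT-TC ran the other way, with 248 and 125 counts in control cells and 73 and 41 at 10 µM, and its neighbour MT-TY had 90, 36, 43 and 44 in the same order. Relative to the mean density of mtDNA counts in the library, MT-TC stood at 4.63 and 3.85 in the controls and at 0.749 and 0.447 at 10 µM. It was the only transfer RNA gene whose share of all counts was not above both controls in both 10 µM libraries. The other 21 were, as were all 13 protein genes, on a scale where mtDNA as a whole rose. On another scale, the share of nuclear counts, both 10 µM libraries lay above both controls in 5.07% of the 13202 nuclear genes with a count. None of the 22 passed edgeR's quasi-likelihood test, described below (smallest adjusted p = 0.106), and their log2 fold changes ran from -0.16 for MT-TC to 4.18 for MT-TG, with a median of 3.28. As a group they took 8.99% and 11.9% of mtDNA counts in the controls, against 12.4% and 12.9% at 10 µM. Pooled per kilobase, the 8 minus-strand transfer RNA genes held more than the 14 plus-strand ones in the controls (904 against 463, and 656 against 415), and fewer at 10 µM (1482 against 1607, and 1306 against 1658). These pooled values lean on single genes, and MT-TC held 248 of the 499 minus-strand counts in control 1. Medians over genes kept the order in the controls (411 against 213, and 476 against 267) and in 10 µM 1 (1125 against 1298). In 10 µM 2 the minus-strand median was the higher (1167 against 1106). Transfer RNAs are short and heavily modified, and how the library kit kept their fragments was not tested.

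The 13 protein genes were tested with all other genes. Counts were compared by edgeR's quasi-likelihood test with Benjamini-Hochberg adjustment over 3180 genes, in a fit of all 6 libraries. In that fit 7 genes rose at 10 µM (0.22% of those tested) and 12 fell (0.377%), and 186 higher and 709 lower had an unadjusted p under 0.05. The split was 8 higher and 7 lower with DESeq2 size factors, 0 and 7 with library totals alone, and 0 and 1 with nuclear genes alone. The log2 fold change of the median tested gene was -3.18, so values on this scale are to be read against that shift, which was 0.0 without control 1 and -6.71 without 10 µM 1. All 7 genes that rose were mtDNA protein genes. Of these, 4 encode subunits of complex I (NADH dehydrogenase): MT-ND5 with a log2 fold change of 3.22 ± 0.54 (SE; adjusted p = 0.0372), MT-ND2 with 2.78 ± 0.51 (0.0414), MT-ND4 with 2.75 ± 0.44 (0.0284) and MT-ND1 with 2.68 ± 0.49 (0.0414). Cytochrome c oxidase gave 2 more, MT-CO3 with 2.93 ± 0.54 (0.0414) and MT-CO1 with 2.55 ± 0.40 (0.0284). The last was MT-CYB, cytochrome b of complex III, with 3.02 ± 0.53 (0.0411).

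In raw counts MT-ND5 had 696 and 728 in control cells and 2794 and 2458 at 10 µM. MT-CYB had 637 and 560 in the controls, against 1867 and 1817 at 10 µM. MT-CO1 had 1669 and 670 in control cells and 2265 and 2052 at 10 µM. In each of the 3, both 10 µM libraries lay above both controls before any scaling for depth. The 6 protein genes that did not pass were the ATP synthase subunits MT-ATP6 (log2 fold change 2.88) and MT-ATP8 (3.48), the complex I subunits MT-ND3 (3.16), MT-ND4L (3.21) and MT-ND6 (3.05), and the oxidase subunit MT-CO2 (0.89). All 13 had both 10 µM shares of all counts above both controls, on a scale where mtDNA as a whole rose. None of the 7 calls held when library totals alone set the scale, when no filter on low counts was used, when the filter was a mean of at least 5 CPM (counts relative to the library total), or when either 10 µM library was left out. MT-ND1, MT-ND2 and MT-CO3 also lost their calls without either 100 µM library. MT-ND5 moved from 3.22 to 2.65 without control 1 and to 4.20 without control 2.

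MT-CO2, at chrM:7586-8269, was the exception among the protein genes. It had 2370 and 1084 counts in the controls, against 1047 and 1021 at 10 µM, the highest level per kilobase of the 13 in both controls (3465 and 1585). At 10 µM it was near the others, with 1531 and 1493 counts per kilobase. Its adjusted p was 0.195 in edgeR's quasi-likelihood test. Its density relative to all mtDNA counts was 4.27 and 3.22 in control cells and 1.04 and 1.07 at 10 µM, lower at 10 µM without overlap. The counts per kilobase are not scaled for depth. As a share of all counts MT-CO2 went the other way, higher in both 10 µM libraries, like the rest of the 13. MT-ATP8 sat at the other end in control 1, with 227 counts per kilobase against 1217 and 1179 at 10 µM. The highest protein gene exceeded the lowest 15.3-fold and 5.90-fold in the controls, and 1.73-fold and 1.48-fold at 10 µM. Whether DNA fragments entered the libraries beside RNA, here or on nuclear genes, was not tested. Across the 13 genes, log2 counts per kilobase correlated at 0.929 between the 10 µM libraries and at 0.695 between the controls, over genes that share a genome and overlap in places, and which are not independent replicates. The plot of mtDNA genes in genome order shows the 10 µM libraries as a nearly level line over the protein genes, with peaks at the first transfer RNA genes and at MT-TP.

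**Figure D2:**
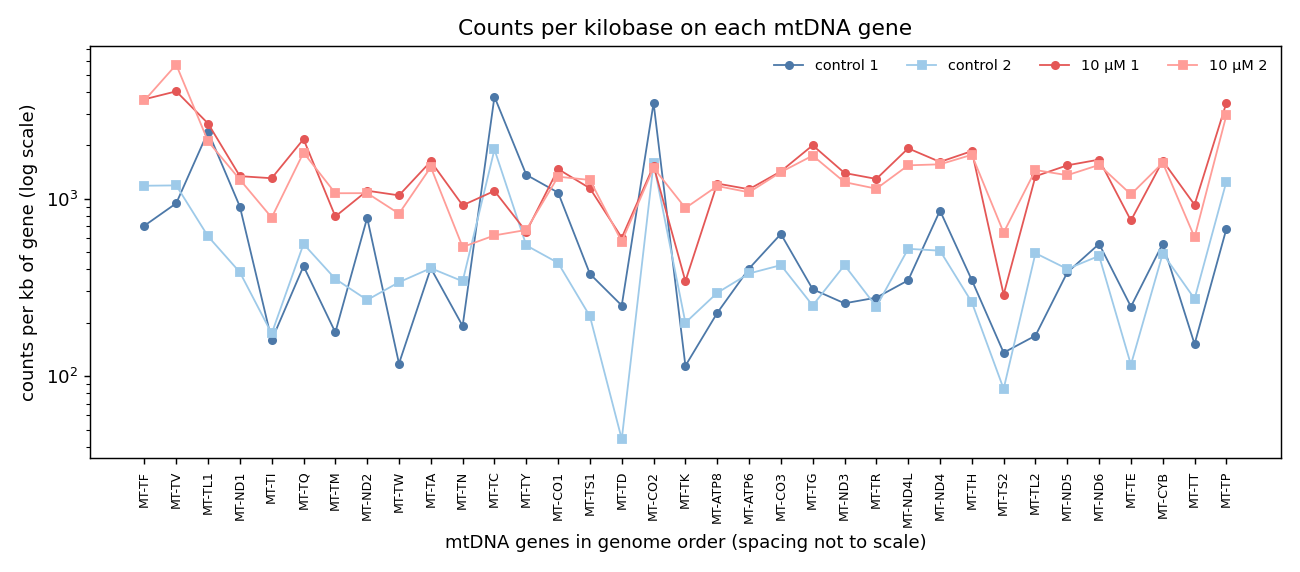
Counts per kilobase (log axis) on each of the 35 mtDNA genes in genome order, 1 line per library, spacing not to scale. Protein genes lay between 1109 and 1923 counts per kilobase in 10 µM 1 and between 1075 and 1592 in 10 µM 2, while the controls show peaks at MT-CO2 (3465 and 1585) and MT-TC (3758 and 1894).

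Nuclear RNA was compared as a share of nuclear counts, which the mtDNA share does not touch. Protein-coding genes took 83.3% and 89.3% of nuclear counts in the controls, against 79.2% and 82.1% at 10 µM. The means differed by -5.66 points (86.3% ± 4.21 and 80.6% ± 2.08, SD, n = 2 each; exact two-sided permutation p = 0.333, the smallest possible), and the groups did not overlap. The difference was -2.68 points without control 2 and -8.64 without control 1. Pseudogenes, decayed copies of other genes, took 0.614% and 1.34% in control cells and 7.1% and 6.8% at 10 µM. Antisense RNA genes took 0.567% and 1.16% in the controls, against 4.76% and 3.62% at 10 µM, although whether counting used strand is not given in the sources used here. The exons of pseudogenes and antisense genes make up 9.30% and 5.26% of nuclear exon length.

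The long intergenic RNAs moved in opposite ways. MALAT1 and NEAT1, which are retained in the nucleus at speckles and paraspeckles, together took 14.5% and 6.08% of nuclear counts in control cells and 0.0857% and 0.14% at 10 µM. All other long intergenic RNAs took 0.36% and 1.28% in the controls, against 5.32% and 4.1% at 10 µM. With MALAT1 and NEAT1 left out of the total, the difference in the protein-coding share was -15.5 points. Genes named as nuclear copies of mtDNA protein genes took 0.0456% and 0.0752% in control cells and 0.804% and 1.44% at 10 µM. MTATP6P1, the highest nuclear gene at 10 µM, had 86, 24, 109 and 118 counts in control 1, control 2, 10 µM 1 and 10 µM 2. These copies are nearly identical to mtDNA, so their counts are uncertain.

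The 10 µM libraries spread their nuclear counts over genes much more evenly than the controls did. To describe this on genes ranked by libraries outside the comparison, protein-coding genes were sorted by counts per kilobase in the 100 µM libraries. Density here means the share of protein-coding counts divided by the share of exon length, so that 1 is what an even spread over exons would give. The highest of 4 tiers with counts, 2996 genes on 14.4% of exon length, took 70.8% and 67.4% of protein-coding counts in the controls, against 18.4% and 24.7% at 10 µM. The 7739 genes with no count at 100 µM, on 28.5% of exon length, took 1.25% and 3.5% in control cells and 23.6% and 18.3% at 10 µM. Densities from the lowest to the highest tier ran from 0.0438 to 4.93 and from 0.123 to 4.69 in the controls, but only from 0.827 to 1.28 and from 0.64 to 1.72 at 10 µM. The groups did not overlap in either outer tier, and each difference gave the smallest permutation p of 0.333.

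GC content separated the libraries as well. Genes were sorted into 5 groups of 3939 by the GC content of their longest GENCODE v29 transcript, known for 19695 of 19724 protein-coding genes. The group with the most GC (58.4% to 76.8%), on 15.5% of exon length, took 10.3% and 19.5% of counts in the controls, against 35.6% and 42.9% at 10 µM. Its density was 0.66 and 1.26 in control cells and 2.29 and 2.76 at 10 µM. The group with the least GC had densities of 1.12 and 0.632 in the controls, against 0.495 and 0.442 at 10 µM. The 10 µM libraries lay outside the control range in both outer groups, and control 2 lay nearer to them than control 1. The part of GC content or amplification in the other differences was not tested.

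**Figure D3:**
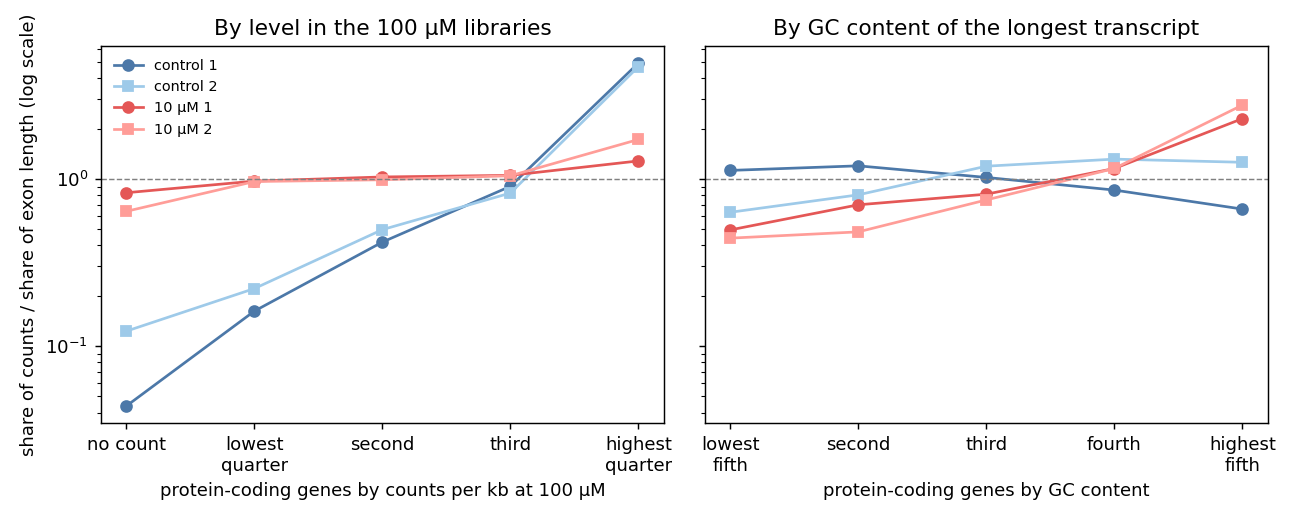
Density of protein-coding counts (share of counts divided by share of exon length, log axis, dashed line at 1) over genes sorted by counts per kilobase at 100 µM (left) and by GC content (right), 1 line per library. On the left the 10 µM lines stay near 1 (0.827 to 1.28, and 0.64 to 1.72) while the control lines climb to 4.93 and 4.69. On the right the 10 µM lines climb to 2.29 and 2.76 in the group with the most GC.

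At matched depth the 10 µM libraries showed more nuclear genes, not fewer. As deposited, 8191 and 5175 nuclear genes had a count in control cells and 4630 and 3065 at 10 µM. When every library was reduced by exact expectation to 11406 nuclear counts, the smallest nuclear total, the numbers were 2561 and 2591 in the controls, against 3485 and 3065 at 10 µM. The group means were 2576 ± 20.9 and 3275 ± 297 (SD, n = 2 each), 699 genes apart, with p = 0.333 by exact permutation. Expected pseudogenes with a count were 48.2 and 100.4 in control cells and 287.5 and 247 at 10 µM, and protein-coding genes with no count at 100 µM were 74.7 and 176 against 603 and 393. Among protein-coding genes alone, at a depth of 9365 counts, the means were 281 genes apart. The order of the groups therefore turned between the deposited and the matched depth. The 10 most abundant nuclear genes held 24.5% and 12.4% of nuclear counts in the controls, against 3.06% and 5.01% at 10 µM.

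**Figure D4:**
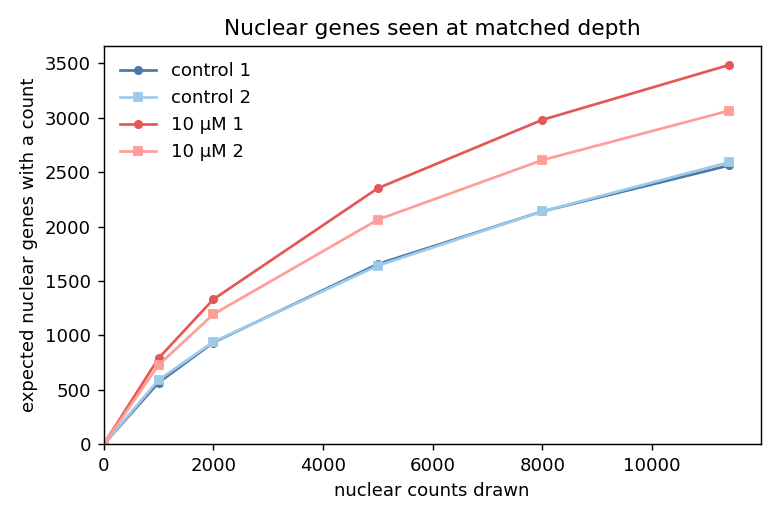
Expected number of nuclear genes with at least 1 count (vertical axis) against the nuclear counts drawn (horizontal axis), 1 line per library, computed exactly. At 11406 counts drawn the controls reach 2561 and 2591 genes and the 10 µM libraries 3485 and 3065.

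The 10 µM replicates shared few of these genes. A count in both was seen for 1006 nuclear genes, 21.7% of those in 10 µM 1 and 32.8% of those in 10 µM 2, beside 3388 genes in both controls, 41.4% of control 1 and 65.5% of control 2. At 11406 nuclear counts each, the shared genes were 21.5% and 24.4% of the 10 µM libraries and 35.9% and 35.5% of the controls. Of the 712 nuclear genes with at least 10 counts in 10 µM 1, 76.4% had none in 10 µM 2, and of the 267 such genes in 10 µM 2, 59.9% had none in 10 µM 1. The same shares were 37.3% of 2319 genes in control 1 and 13.8% of 864 in control 2. With the other replicate reduced to 11406 nuclear counts, it was expected to show 41.5% and 56.0% of these control genes. For the 10 µM genes the expected values were 23.6% and 34.6%. Only the other replicate was reduced, and the genes were still chosen at the full depth of their own library. Depth was therefore not fully matched in these values, and the gaps between the groups cannot be compared before and after. Genes without a count in the other replicate, whatever their own count, held 76.7% and 62.8% of nuclear counts in the 10 µM libraries and 22.8% and 13.8% in the controls. These shares depend on depth, and the 10 µM libraries were the shallowest.

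All 12 genes that fell were nuclear, and the first was MALAT1 (chr11:65497762-65506516). It had 32494 and 2808 counts in control cells and 17 and 13 at 10 µM, which is 14.1%, 5.15%, 0.0694% and 0.114% of nuclear counts. Its log2 fold change was -8.15 ± 0.74 SE with an adjusted p of 0.0013 in edgeR's quasi-likelihood test, and the pooled nuclear share was 148-fold lower at 10 µM (95% counting interval 104 to 220). NEAT1 (chr11:65422774-65445540), the scaffold of paraspeckles, had 953 and 508 counts in the controls, against 4 and 3 at 10 µM (26.3-fold, 12.7 to 65.6; edgeR log2 -6.15, adjusted p = 0.0153). Against control 1 or control 2 alone the ratios were 169 and 61.7 for MALAT1, and 21.2 and 47.8 for NEAT1. The groups of neither gene overlapped, and without control 1 the log2 fold change of MALAT1 was -6.76. MALAT1 was the only one of the 12 that passed when the fit held nuclear genes and nuclear totals alone. None passed without 10 µM 1 or without 10 µM 2. With every library thinned to 29350 counts, MALAT1 and HNRNPH1 passed, and with no filter on low counts MALAT1, HNRNPH1, NDRG1 and SAT1 did.

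Among the protein-coding genes that fell, 3 belong to the secreted and surface products of liver cells and hepatoma. APOA2, an apolipoprotein of high-density lipoprotein, had 954 and 454 counts in control cells and 4 and 2 at 10 µM (29.6-fold lower by pooled nuclear share, 95% counting interval 13.6 to 80.8). GPC3, a surface glypican typical of hepatocellular carcinoma, had 755 and 156 in the controls, against 3 and 3 at 10 µM (19.2-fold, 8.76 to 52.3). FN1, fibronectin, had 733 and 112 in control cells and 3 and 1 at 10 µM. Against control 1 or control 2 alone, the ratio of APOA2 was 24.8 and 49.9. In all 3 the lowest control stood far above the highest 10 µM library at equal depth. Their log2 fold changes were -6.30, -5.37 and -5.82 (edgeR quasi-likelihood, adjusted p = 0.0111, 0.0414 and 0.0414). FN1 and GPC3 lost their calls with DESeq2 size factors, with library totals alone and without either 100 µM library.

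A further 4 encode parts of the cytoskeleton or its scaffolds. KRT18 and KRT19, keratins of simple epithelia, had 459 and 314, and 407 and 315 counts in the controls. At 10 µM they had 1 and 1, and 0 and 1. AKAP12, which anchors protein kinase A, had 2076 and 235 in the controls, against 3 and 2 at 10 µM (58.3-fold, 95% counting interval 24.9 to 180). AHNAK, a giant scaffold protein under the plasma membrane, had 407 and 112 counts in the controls and none at 10 µM, at least 21.8-fold lower when the 10 µM group is set at 3 counts over its pooled nuclear total. The pooled ratios of the keratins were 48.7 (13.4 to 403) and 91.1 (16.3 to 3602), resting on 2 counts and 1 count at 10 µM. Against each control alone, the ratios were 64.8 and 31.0 for AKAP12, 35.8 and 103 for KRT18, and 63.5 and 208 for KRT19. All 4 passed at adjusted p of 0.027 to 0.0489 in edgeR's quasi-likelihood test. KRT18, KRT19 and AHNAK did not pass with DESeq2 size factors or library totals alone, nor did KRT18 and AHNAK without either 100 µM library.

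The remaining 3 were NDRG1, SAT1 and HNRNPH1. NDRG1, a gene induced by low oxygen and stress, had 1569 and 921 counts in control cells and 4 and 6 at 10 µM (31.4-fold, 95% counting interval 17.0 to 65.6; edgeR log2 -6.39, adjusted p = 0.00959). SAT1, which acetylates spermidine and spermine in polyamine breakdown, had 6636 and 216 in the controls, against 6 and 5 at 10 µM (78.6-fold, 43.9 to 157; edgeR log2 -7.12, adjusted p = 0.0284). HNRNPH1, a splicing factor, had 1921 and 118 in the controls and none at 10 µM, at least 85.7-fold lower (edgeR adjusted p = 0.0284). NDRG1 took 0.682% and 1.69% of nuclear counts in the controls, whereas SAT1 took 2.88% of control 1 and 0.396% of control 2. Against each control alone, the ratios were 24.5 and 60.7 for NDRG1, 94.1 and 12.9 for SAT1, and at least 99.9 and 25.9 for HNRNPH1. Without control 1 the log2 fold change of SAT1 was -4.50. Where a gene had no count at 10 µM its fitted log2 value is no bound and is not given.

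Other genes abundant in control differed between the controls and did not pass. The phosphatase subunit PPP1CB had 2693 and 8 counts in control cells and 1 and 9 at 10 µM (edgeR adjusted p = 0.142). VMP1, a membrane protein of autophagy, had 2440 and 21 in the controls, against 4 and 2 at 10 µM (0.105). The receptor-like gene DCBLD2 had 2442 and 6 in control cells and 1 and 1 at 10 µM (0.105). In each, almost all the counts lay in control 1.

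Several genes with clear control levels had no count in either 10 µM library. Beside HNRNPH1 and AHNAK, these were led by ACSL5, an acyl-CoA synthetase of mitochondria and endoplasmic reticulum (384 and 83 control counts, at least 19.6-fold lower), and ENAH, an actin regulator (725 and 70, at least 33.4-fold). The stress cytokine GDF15 had 257 and 53 control counts (at least 13.0-fold), and RPL8, a protein of the large ribosomal subunit, had 184 and 141 (at least 13.7-fold). Against each control alone, the bounds were 37.7 and 15.4 for ENAH, and 9.57 and 31.0 for RPL8. None of these 4 passed in edgeR's quasi-likelihood test (adjusted p between 0.0588 and 0.0669). Of 528 nuclear genes with at least 10 counts in both controls, 192 had no count at 10 µM. A choice by control counts favours genes that are high there, so this count is a description.

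Nuclear genes with the most counts at 10 µM were of another kind, and none passed the test. WDR90, a protein of centrioles and cilia, had 2 and 0 counts in the controls, against 36 and 62 at 10 µM (pooled nuclear share 388-fold higher, 95% counting interval 105 to 3253; edgeR log2 7.53, adjusted p = 0.105). MYO15B, an unconventional myosin gene, had 5 and 4 in control cells and 109 and 21 at 10 µM. FOXC1, a forkhead transcription factor that has a single exon, had 0 and 2 in the controls, against 43 and 19 at 10 µM. These 3 were present in both 10 µM libraries.

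PKD1, which encodes polycystin and has near-identical pseudogene copies that make its counts uncertain, had 7 and 3 counts in control cells and 48 and 17 at 10 µM. ABCB8, a transporter of the mitochondrial inner membrane, had 2 and 1 in the controls, against 20 and 13 at 10 µM. KIF7, a kinesin of Hedgehog signalling, had 0 and 1 in control cells and 20 and 10 at 10 µM. CDH22 (19 and 15), a cadherin, COMP (19 and 10), a cartilage matrix protein, and GRM4 (14 and 11), a glutamate receptor, were seen at 10 µM with 0 and 1 counts in the controls. Genes of this kind were chosen because both 10 µM shares lay above both controls, so these values are a description.

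Other genes owed their place to a single 10 µM library. The potassium channel gene KCNT1 had 4 and 68 counts there, the RNA polymerase III factor BRF1 had 5 and 51, and HELZ2, a nuclear receptor coactivator, had 3 and 48. The metal transporter gene SLC11A1 had 3 and 44. ASIC3, an acid-sensing channel gene, had 0 and 41, with no count in the controls. All 5 had at most 4 counts in either control, and their high counts were in 10 µM 2. AATK, a kinase gene, was seen in both (29 and 47) beside 0 and 8 counts in the controls. Among all nuclear genes, 258 had at least 3 counts in both 10 µM libraries, of which 215 lay above both controls and 53 had no control count. Over the 13202 nuclear genes with a count, 5.07% had both 10 µM shares above both controls. A choice by 10 µM counts favours genes that are high there, so these numbers are a description.

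Gene lists for the biology of liver cells and mitochondria were described by their share of nuclear counts and its density over exon length. In 17 of 28 nuclear lists both 10 µM shares lay below both controls, and in 4 both lay above. No background share is given for lists, which were chosen with earlier results known and share some members, such as ACADVL and APOA1. These counts of lists are therefore a description. Among the 4, structured small RNAs rested on 2 and 0 counts in the controls, against 1 and 2 at 10 µM. Among the 17, the counting intervals of splicing factors overlapped between control 2 (0.622% to 0.763%) and 10 µM 2 (0.518% to 0.824%). The cytosolic ribosome, whose messages are among the most abundant in growing cells, was lower in both subunits. Large-subunit genes took 2.18% and 4.46% in the controls, against 0.163% and 0.412% at 10 µM, and small-subunit genes took 1.92% and 2.88% against 0.0979% and 0.289%. Of the members with a count, 38 of 47 and 26 of 32 had both controls above both 10 µM libraries, beside 15.6% of the 13202 nuclear genes with a count. Of 528 nuclear genes with at least 10 counts in both controls, 413 did so, which is close to the ribosomal numbers. The order is thus not particular to the ribosome, and a choice by control counts favours it. None of 46 and 32 members tested passed. With a group without a count set at 3 counts, the median pooled log2 ratio of nuclear shares was -2.65 and -2.78, beside 0.48 over 3051 tested nuclear genes with a count. Abundant members were RPL38 (119, 448, 1 and 1 counts in control 1, control 2, 10 µM 1 and 10 µM 2), RPL37A (344, 285, 2 and 9) and RPS3 (219, 227, 1 and 3).

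Genes of the response to low oxygen took 3.03% and 3.47% in control cells and 0.0612% and 0.175% at 10 µM, a ratio of means of 27.5. NDRG1 was the only 1 of 19 tested members that passed, and the median pooled log2 ratio was -2.57. Glycolytic enzymes took 0.847% and 1.83% in control cells and 0.18% and 0.202% at 10 µM, and none of 14 tested passed. Their most abundant members were aldolase ALDOA (288, 370, 18 and 5 counts), triosephosphate isomerase TPI1 (180, 200, 1 and 4) and enolase ENO1 (238, 106, 3 and 2). The groups overlapped in neither list. Integrated stress response genes took 0.324% and 0.229% in the controls, against 0.135% and 0.0526% at 10 µM, and endoplasmic reticulum chaperones took 0.363% and 0.393% against 0.175% and 0.193%, with none of 17 and 16 tested members past the threshold. With a group without a count set at 3 counts, the median pooled log2 ratio was 0.11 for the stress response and -1.88 for the chaperones. The same median over 3051 tested nuclear genes with a count was 0.48. In 10 µM 1, SHMT2 held 20 of the 33 stress response counts and P4HB 24 of the 43 chaperone counts. Their counts in control 1, control 2 and 10 µM 2 were 1, 0 and 0 for SHMT2, and 48, 73 and 1 for P4HB.

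Among liver lipid genes, apolipoproteins and targets of PPAR alpha followed the same order, while sterol and fatty acid synthesis genes did not. Apolipoproteins took 0.614% and 1.63% in control cells and 0.0245% and 0.0614% at 10 µM, with APOA2 the 1 of 5 tested that passed. APOE, the lipoprotein ligand, had 310 and 226 counts in the controls, against 1 and 5 at 10 µM, and APOA1 had 54 and 123 in the controls and none at 10 µM. Targets of PPAR alpha, a nuclear receptor for fatty acids that perfluoroalkyl acids are known to activate, took 0.314% and 0.363% in control cells and 0.0449% and 0.21% at 10 µM. Their most abundant member, ANGPTL4, had 195, 122, 1 and 1 counts (edgeR adjusted p = 0.0813), and none of 9 tested passed. ACADVL, with 49, 6, 0 and 19 counts, did not follow this order and held 19 of the 24 counts of the list in 10 µM 2. Sterol and fatty acid synthesis genes overlapped between groups (0.261% and 0.152% against 0.249% and 0.0964%).

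Nuclear genes for mitochondrial proteins were compared as shares of nuclear counts, whereas the rise of mtDNA genes was in the share of all counts. Subunits of complexes II to V took 0.417% and 1.01% of nuclear counts in the controls, against 0.106% and 0.281% at 10 µM, with COX4I1 of the oxidase at 201, 131, 0 and 1 counts. Complex I subunits took 0.16% and 1.42% in control cells and 0.0816% and 0.184% at 10 µM, so that control 1 lay between the 10 µM libraries. No member of either list passed, of 32 and 18 tested. Their fitted medians of -6.94 and -5.45 became 0.62 and 0.38 with empty groups set at 3 counts, a change of sign. The same median over 3051 tested nuclear genes with a count was 0.48. Of those tested, 19 and 8 had no count at 10 µM. Mitochondrial chaperone and import genes took 0.2% and 0.338% against 0.0898% and 0.149%. Matrix enzymes overlapped (0.132% and 0.2% against 0.11% and 0.412%), as did genes that copy and express mtDNA (0.0382% and 0.0147% against 0.159% and 0.0175%). In the last list 10 µM 1 stood alone, with 17 counts on the mitochondrial RNA polymerase POLRMT and 11 on LRPPRC, a stabiliser of mtDNA messages, and none on either in 10 µM 2. With empty groups set at 3 counts, the medians of the chaperone, matrix and mtDNA expression lists were 0.22, 1.45 and 4.16. They rest on 15, 5 and 6 genes.

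Keratins and cytoskeletal scaffolds held 4 of the 12 genes that fell, of 21 tested, beside 0.377% of all tested genes in a list chosen with earlier results known. They took 2.65% and 3.06% in the controls, against 0.286% and 0.631% at 10 µM. Polyamine genes (2.91% and 0.448% against 0.0653% and 0.184%) owed their share to SAT1, since the other named members OAZ1 (27, 16, 3 and 9 counts) and AZIN1 (3, 3, 4 and 2) showed no such gap. Splicing factors took 2.24% and 0.69% against 0.326% and 0.658%, led by HNRNPH1. Of 30 members with a count, 4 had both controls above both 10 µM libraries and 9 had both 10 µM libraries above, beside 15.6% and 5.07% of nuclear genes. SRSF11 had 829 and 7 counts in control cells and 0 and 1 at 10 µM (edgeR adjusted p = 0.121). Lysosomal genes took 0.511% and 0.556% in the controls, against 0.118% and 0.114% at 10 µM, with the saposin precursor PSAP at 100, 100, 0 and 0 counts. Immediate early and EGFR feedback genes took 0.507% and 0.424% against 0.127% and 0.167%. Of their 27 members with a count, 7 had both controls above both 10 µM libraries and 1 had both 10 µM libraries above. Their median pooled log2 ratio was 0.18 with empty groups set at 3 counts, beside 0.48 over tested nuclear genes with a count.

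Histone genes were 1 of the 4 lists with both 10 µM shares above both controls, by a margin within counting error for control 1 and 10 µM 1, at 0.104% and 0.0716% in control cells and 0.11% and 0.193% at 10 µM. H3-3B, which encodes replacement histone H3.3, had 42, 11, 13 and 16 counts (edgeR log2 0.95, adjusted p = 0.488), and none of 9 tested histone genes passed. The 10 µM shares rested on 27 and 22 counts, 6 of the 9 had no count at 10 µM, and 3 members had both controls above while 2 had both 10 µM libraries above. Genes with long bodies and little known liver expression, took 0.0521% and 0.00367% in the controls, against 0.18% and 0.0614% at 10 µM. Those shares rested on 120, 2, 44 and 7 counts, and 113 of the 120 in control 1 were on CNTNAP2. The plot of list densities holds the lists with tested members other than the markers of foreign cell types. Over those lists the control libraries ranged from 0.00866 to 131, and the 10 µM libraries from 0.145 to 8.29.

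**Figure D5:**
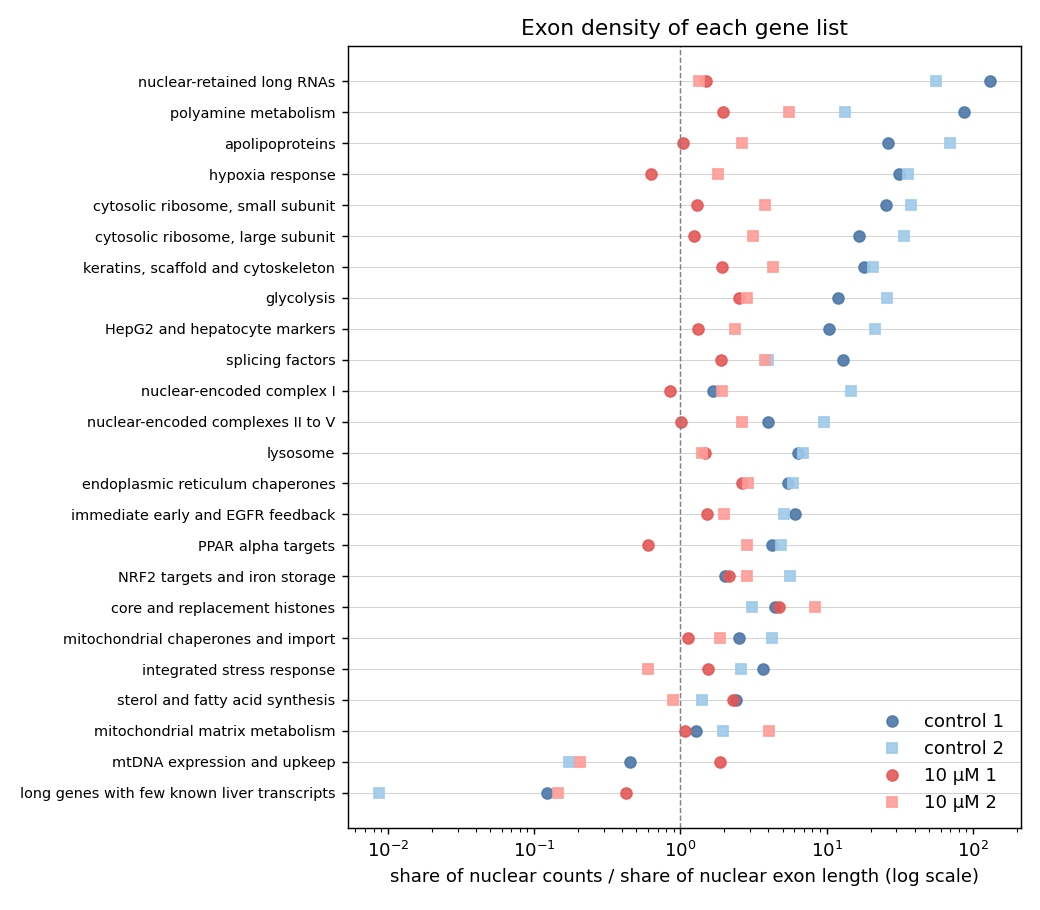
Density of each gene list (share of nuclear counts divided by share of nuclear exon length, log axis, dashed line at 1), 1 point per library, lists ordered by their control mean. Lists without a tested member and markers of foreign cell types are not drawn, and no value drawn is 0. Control points reach 131 for nuclear-retained long RNAs and 69.6 for apolipoproteins, while the 10 µM points lie between 0.145 and 8.29.

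The label of a liver carcinoma line was checked against 18 markers of HepG2 and hepatocytes. Counts were found on 13 and 8 of them in the controls and on 7 and 5 at 10 µM, with shares of 0.57% and 1.19% against 0.0735% and 0.132%. Albumin (ALB) had 22, 31, 2 and 0 counts, transferrin (TF) 114, 104, 1 and 0, and SERPINA1 211, 30, 6 and 2, in the order control 1, control 2, 10 µM 1 and 10 µM 2. Other members went the other way: FGG had 1, 0, 0 and 8 counts, FGB 0, 0, 4 and 0, and TTR 0, 0, 1 and 0. The defining markers AFP and FGA had no count in any of the 4. At 10 µM the liver markers held 18 and 15 counts in all, so the label rests on few counts there. Of 5 endothelial markers, VWF alone was seen, with 4 counts in control 2. Of 7 immune markers, LYZ had 74, 8, 2 and 4 counts, and PTPRC had none. Fibroblast and stellate cell markers took 0.0226% and 0.0165% in control cells and 0.0408% and 0.0789% at 10 µM, on 9 to 52 counts per library, mostly COL1A1 (50, 6, 6 and 6). The part of these cell markers in the results above was not tested.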

How the data were processed

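RNA-seq was made from mitochondrial preparations of HepG2 cells, 2 libraries per group. The deposited values were raw counts of reads per gene, 1 table per library. Per the submitters' processing notes the tools were FastQC, STAR, featureCounts and DESeq2 with GRCh38. For annotation release, strand setting, versions and multiply mapped reads, the setting is not given in the sources used here. These settings can change the counts of pseudogenes, antisense genes and short mtDNA genes. No row lacked a gene name, and 56898 of 57500 identifiers matched GENCODE v29, which gave gene types. Groups and replicate numbers came from sample titles. Replicates differed beyond sampling noise (chi-square per degree of freedom 39.4 in the controls and 12.9 at 10 µM, over genes with at least 10 counts), so none was merged.

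Genes were tested with edgeR 4.0.16 in R 4.3.3 (filterByExpr, TMM, robust quasi-likelihood fit of group means over all 6 libraries, two-sided contrast of 10 µM against control, Benjamini-Hochberg threshold 0.05). The 100 µM libraries entered through the spread, scaling and filter. Single values per library were compared by exact permutation in scipy 1.17.1 under Python 3.11.15, with pandas 2.3.3, numpy 2.4.6 and matplotlib 3.10.9. Depth matching used the hypergeometric expectation at 11406 nuclear counts. Exact 95% intervals and a limit of 3 counts gave counting error. Scripts were tested on simulated data. Alternatives were other scalings, DESeq2 1.42.0, other filters, the 4 libraries alone, a replicate block, thinning and leaving out each library. Ratios against each control alone were added after seeing the data.

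Genes were named by rule: those that passed, the mtDNA protein genes, the nuclear genes highest in each group, those higher in both 10 µM libraries, those without a count at 10 µM, and up to 3 members per list by abundance. MT-TF, MT-TV, MT-TP, MT-TC, MT-TY, MT-TG, BAIAP2, KCNK3 and single markers were picked after their values were seen. Lists and rules were chosen with earlier results of these data known. The ribosomal RNA genes of mtDNA were left out. Some genes that met the naming rule are not reported here.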

Additional observations from a re-analysis of the deposited data

How the results depend on the processing

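The differences in mtDNA share, protein-coding share and genes at matched depth kept their direction under all alternatives run, as did the log2 fold changes of the named mtDNA protein genes and of the 12 lower genes. Other choices of genes gave 39.2 and 44.7 points for mtDNA, -14.8 and -15.5 points for protein-coding genes, and 281 to 622.5 genes. Without single libraries, the differences ran from 36.3 to 53.7 points, from -8.64 to -2.68 points and from 489 to 909 genes. Counts of called genes moved much more than this. Against 7 higher and 12 lower genes in edgeR's quasi-likelihood test, the DESeq2 Wald test gave 168 and 386, and the 4 libraries alone gave 72 and 134 of 458 genes tested. Library totals alone gave 0 and 7, nuclear genes alone 0 and 1, no filter on low counts 0 and 7, and a mean of at least 5 CPM 0 and 95. DESeq2 size factors left 8 higher and 7 lower. At an unadjusted p under 0.05 the settings with 0 higher genes had 236, 154, 385 and 360. Thinning to 29350 counts gave 18 and 2 of 659 tested, the 2 lower being MALAT1 and HNRNPH1, and the higher ones 14 mtDNA genes with WDR90, PKD1, BAIAP2 and KCNK3. The causes of these differences were not tested. Leaving out single libraries gave 0 to 74 higher genes and 0 to 550 lower, 0 in both directions without either 10 µM library, where 116 and 176 were higher and 283 and 356 lower at an unadjusted p under 0.05. Without control 1 the counts were 25 and 220, and without control 2 they were 74 and 550. Without either 100 µM library 4 genes were higher.

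The median log2 change of all tested genes was -3.18 in the main setting (TMM). It was -2.64 for library totals alone, -2.66 for DESeq2 size factors and -1.42 for the DESeq2 Wald test. It was 0.0 with no filter or without control 1, -0.70 at a mean of 5 CPM, and -6.71 and -5.79 without 10 µM 1 or 2, so this shift rests on single libraries. With a replicate block the test called 14 higher and 61 lower, including all 7 and all 12, and the difference in mtDNA share was 45.0 points. The numbers did not pair the samples, since deviations of same-numbered control and 10 µM libraries correlated at 0.0015. Of the 3180 genes tested, 1286 were without a count in both 10 µM libraries and 234 in both controls. These zeros limit the nuclear results, and the parts of depth and dose in them were not tested.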

Other observations

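Nuclear counts were also compared by chromosome, as the share of nuclear counts divided by the share of nuclear exon length over 23 chromosomes. Chromosome 20 stood at 1.70 and 1.76 in the controls and at 1.90 and 2.49 at 10 µM. Chromosome 16 stood at 0.83 and 1.25 in the controls and at 1.46 and 1.88 at 10 µM. Chromosome 11, which carries MALAT1 and NEAT1, stood at 3.24 and 2.25 in the controls and at 1.01 and 0.91 at 10 µM. Chromosome X stood at 1.67 and 0.84 in the controls and at 0.48 and 0.64 at 10 µM. It carries SAT1, which took 2.88% of nuclear counts in control 1. These chromosomes are examples. Others also did not overlap, such as chromosome 22 (0.43 and 0.68 in the controls, 1.09 and 0.97 at 10 µM). Some did overlap, such as chromosome 3 (0.98 and 0.67 in the controls, 0.69 and 0.70 at 10 µM). Across chromosomes these densities correlated at 0.855 between the 10 µM libraries and at 0.737 between the controls. Control 2 correlated with the 10 µM libraries at 0.587 and 0.579, and control 1 at 0.197 and 0.137. Chromosomes share a library and differ in base composition, so these values are a description.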
